A study of Homo sapiens with 30 samples.

Results

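The aminoacyl-tRNA synthetases are the enzymes that load each tRNA with its amino acid. Their members were taken by symbol from the deposited expression table and comprise 36 of its 26228 genes, of which 20 encode enzymes of the cytosol and 16, with the suffix 2, encode enzymes of mitochondria. All 36 passed the filter of a mean of at least 1 fragment per kilobase of transcript, scaled to the library's mapped reads (FPKM), and 0 of their values in the 30 libraries were at 0. Mean levels, which FPKM express per transcript length, ran from 1.24 FPKM for PARS2 to 183 FPKM for IARS2. RNA-Seq was from the established neuroblastoma (NB) line SH-EP, labelled SHEP, and from 4 stable derivatives made with retroviral vectors. These carried WT MYCN, MYCN T58A, MYCN S62A, or the T58A S62A double mutant under an exogenous promoter, and the mutated residues are phosphorylation sites used in the turnover of Myc proteins. Each line was treated for 6 hours with DMSO or with 1 μM CYC065, an inhibitor of CDK9 and CDK2, and each of the 10 groups had 3 libraries. The labels do not say whether the 3 came from separate cultures, so p-values measure the spread between these libraries, which may be technical.

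Most amino acids are charged by separate enzymes in the cytosol and in mitochondria, and both sets are encoded in the nucleus. GARS and KARS serve both compartments, EPRS joins the glutamyl and prolyl enzymes in 1 protein, and FARSA and FARSB are the subunits of the phenylalanyl enzyme. Several cytosolic enzymes are held with the scaffold proteins AIMP1, AIMP2, and EEF1E1 in the multisynthetase complex. Many cytosolic synthetase genes are known targets of ATF4, the transcription factor of the amino acid response, and Myc proteins are known for driving genes of translation through the E-box CACGTG. CDK9 releases paused RNA polymerase II, so its inhibition is known to deplete short-lived transcripts first.

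MYCN was listed at 0 in all 6 SH-EP libraries. The double mutant line held 13.5 ± 3.83 FPKM of it with DMSO, the WT line 12.9 ± 1.09, T58A cells 8.52 ± 1.29, and S62A cells 5.72 ± 0.78 (mean ± SD, n = 3). MYC, its paralog, was at 4.94 ± 0.49 FPKM in SH-EP and at 0.45 to 1.60 FPKM in the means of the MYCN lines. Of the mesenchymal NB markers, VIM was at 2496, FN1 at 303, and PRRX1 at 111 FPKM in SH-EP, and their means in the MYCN lines were 1335 to 1766, 28.3 to 52.1, and 37.7 to 88.9 FPKM. Of 6 such markers tested, 5 were lower in the MYCN lines as deposited and all 6 after spike-in scaling. Their FPKM summed to 3184 to 3303 in SH-EP and to 1564 to 2240 in the libraries of the MYCN lines with DMSO, 0 of them were at 0 throughout a group, and their part in the differences from SH-EP was not tested. Read totals are not part of an FPKM table, so depth is known only as a relative value read from the lowest FPKM steps, 0.47 to 1 in DMSO libraries and 0.295 to 0.558 in CYC065 libraries. The FPKM of all genes summed to more in every CYC065 library than in every DMSO library. The index sequence of each of the 6 SH-EP libraries was also used for a library of a MYCN line, so these libraries were not sequenced in 1 pool with those, and the pool and the line cannot be told apart in the comparisons with SH-EP.

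The first comparison asked how the synthetase genes differed in the MYCN lines from parental SH-EP cells, on FPKM as deposited. Of the 20 cytosolic genes, 13 were higher and 2 lower in the mean of the 4 MYCN lines, and of the 16 mitochondrial genes, 9 were higher and 2 lower (limma, adjusted p under 0.05). Among all 11575 genes tested, 34.6% were higher and 26.3% lower. The median log2 change was 0.22 for the cytosolic and 0.29 for the mitochondrial genes, and 0.06 for all genes. In all 4 lines at once, 11 cytosolic genes were higher (DARS, FARSB, GARS, IARS, KARS, LARS, NARS, SARS, TARS, VARS, and YARS), and so were 7 mitochondrial genes (CARS2, EARS2, LARS2, MARS2, NARS2, SARS2, and YARS2). No member was lower in all 4 lines, against 19.2% of all genes higher and 13.4% lower in all 4. These 4 comparisons share the 3 SH-EP libraries, and in bulk RNA fewer cells of a type and less RNA per cell cannot be told apart. The direction depended on the scale. After scaling to the ERCC spike-ins, synthetic RNAs added by cell number, the median of all genes fell to -1.17, all 20 cytosolic and 14 of the 16 mitochondrial genes were called lower, and 0 were called higher, against 91.2% of all genes lower and 1.1% higher. Relative to the median of all genes, the medians of the cytosolic and mitochondrial genes were 0.16 and 0.22 higher as deposited and 0.15 and 0.22 higher after spike-in scaling. Scaling multiplies all genes of a library by 1 factor, so such differences are nearly equal on both scales by construction.

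**Figure D1:**
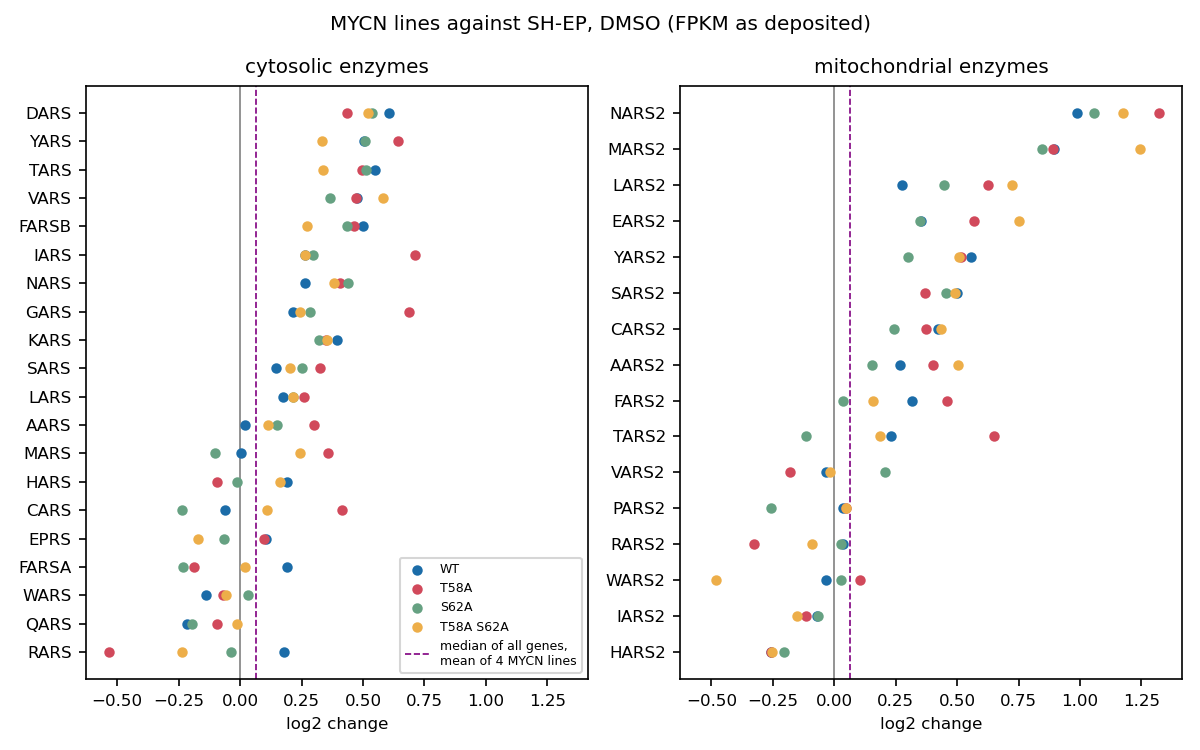
Log2 change of each synthetase gene between SH-EP and each MYCN line with DMSO, on FPKM as deposited, with cytosolic genes on the left and mitochondrial genes on the right. Colored points are the 4 lines and the dashed line is the median of all tested genes in their mean, 0.06. NARS2 and MARS2 lie farthest to the right in the means, and after spike-in scaling, where the median of all genes is -1.17, the means of all 36 genes are below 0.

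The largest differences were in mitochondrial genes of low level. NARS2, the mitochondrial asparaginyl enzyme (chromosome 11, 78146666 to 78286239 of GRCh37, minus strand), was at 5.43, 5.88, and 6.56 FPKM in the SH-EP DMSO libraries. Its 12 libraries of the MYCN lines ran from 10.7 to 16.2 FPKM, with a median of 13.1. The groups did not overlap, and the mean log2 change was 1.14 ± 0.11 (SE, adjusted p = 2.41e-09, limma) as deposited and -0.10 after spike-in scaling. It lay 1.07 above the median of all genes on either scale, an equality that follows from the scaling. MARS2, the mitochondrial methionyl enzyme (chromosome 2, 198570093 to 198573119, plus strand), was at 4.75, 4.72, and 4.39 FPKM in SH-EP. In the MYCN lines it ran from 7.37 to 11.5 FPKM, with a median of 8.94, again without overlap. Its mean change was 0.97 ± 0.19 (adjusted p = 0.000125, limma), or -0.26 after spike-in scaling. SARS2, the mitochondrial seryl enzyme (chromosome 19, 39405906 to 39421403, minus strand), was at 8.72, 8.22, and 8.81 FPKM in SH-EP and at 10.1 to 13.2 FPKM, with a median of 12.2, in the MYCN lines. Its change was 0.45 ± 0.09 (adjusted p = 0.000108, limma), or -0.79 after spike-in scaling. LARS2, EARS2, and YARS2 changed by 0.52, 0.51, and 0.47 as deposited. HARS2 was lower by -0.24 and IARS2 by -0.10. In fits without 1 library, the call of HARS2 was lost in 2 and that of IARS2 in 1 (adjusted p up to 0.138 and 0.0618, limma). The call of AARS2, higher by 0.33, was also lost in 1 such fit (adjusted p = 0.0548, limma). FARS2, PARS2, RARS2, VARS2, and WARS2 did not pass the test, with values between -0.10 and 0.24.

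Among the cytosolic genes, DARS, the aspartyl enzyme of the multisynthetase complex (chromosome 2, 136663451 to 136743670, minus strand), was at 19.1, 20.2, and 21.0 FPKM in SH-EP. It was at 24.6 to 31.1 FPKM, with a median of 29.8, in the 12 libraries of the MYCN lines, and its change was 0.52 ± 0.05 as deposited (adjusted p = 1.69e-09, limma) and -0.72 after spike-in scaling. YARS, the tyrosyl enzyme (chromosome 1, 33240838 to 33283632, minus strand), was at 41.9, 44.7, and 39.8 FPKM in SH-EP and at 50.2 to 68.6 FPKM, with a median of 59.9, in the MYCN lines, a change of 0.50 ± 0.05. Both genes were higher in every MYCN-line library than in every SH-EP library as deposited. TARS, the threonyl enzyme (chromosome 5, 33440802 to 33468196, plus strand), was at 79.1, 81.4, and 81.6 FPKM in SH-EP and at 96.4 to 121 FPKM, with a median of 115, in the MYCN lines. VARS, the valyl enzyme (chromosome 6, 31745295 to 31763529, minus strand), was at 57.6, 59.1, and 55.2 FPKM in SH-EP and at 73.3 to 93.2 FPKM, with a median of 77.2, in the MYCN lines. The changes of TARS and VARS were 0.48 ± 0.04 and 0.47 ± 0.05 as deposited and -0.77 each after spike-in scaling. QARS and RARS, the glutaminyl and arginyl enzymes of the complex, were lower by -0.13 and -0.16 as deposited. The call of QARS was lost in 10 fits without 1 library and that of RARS in 1, without an SH-EP library. The call of MARS, higher by 0.13, was lost in 2 such fits (adjusted p up to 0.124, limma). CARS, EPRS, FARSA, HARS, and WARS did not pass the test in the mean, with values between -0.06 and 0.06. None of the 20 cytosolic genes reached a 1.5-fold change in the mean, and 2 mitochondrial genes, NARS2 and MARS2, did. How many of all genes reached it is not given, so these counts have no background beside them.

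The same comparison was made for the wider tRNA machinery, against the background of 34.6% of all genes higher and 26.3% lower as deposited. All 3 scaffold genes of the multisynthetase complex were higher, EEF1E1 by 1.06 ± 0.09, AIMP2 by 0.88 ± 0.06, and AIMP1 by 0.38 ± 0.07 in log2, whereas 5 of the 8 enzyme genes of the complex were higher and 2 lower. All 5 partners of mitochondrial charging were higher. Among them were MTFMT (0.66), which formylates the initiator tRNA, QRSL1 (0.65), a subunit of the glutamyl-tRNA(Gln) amidotransferase, and TRNT1 (0.60), which adds the CCA end. Of 18 tRNA processing and modification genes, 17 were higher and 0 lower, with the pseudouridine synthases PUS7 (1.19) and PUS1 (1.17) and the methyltransferase TRMT1 (1.07) in the lead. Of 19 genes of RNA polymerase III and its factors, 13 were higher and 1 lower, and POLR3G changed by 1.61, GTF3A by 0.96, and POLR3K by 0.88. Of 15 genes of the ATF4 response, 12 were higher and 0 lower, with PSAT1 at 1.19, ATF3 at 1.10, and DDIT4 at 1.06. After spike-in scaling, 2 of 3, 5 of 5, 13 of 18, 17 of 19, and 10 of 15 genes of these lists were called lower, and 1 polymerase III gene was called higher, against 91.2% of all genes lower.

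The E-box CACGTG was searched on both strands of promoter windows from 250 bases before to 50 bases after the start site (RefSeq, GRCh38.p14), which were at hand for 30 of the 36 members. It was found in 4 of 30 windows, against 7.26% of all 35093 windows. The matches are shown with 10 bases on either side, the motif in capitals, because all 4 genes were among those higher in all 4 MYCN lines as deposited.
IARS: gttcgttttcCACGTGgaggcgcaaa
CARS2: ctgggatgcaCACGTGcttcgctaac
EARS2: gggagaagccCACGTGtgctattcca
MARS2: gcgcctctcaCACGTGctgtcagaac
The first base of the motif lay at -186, -3, -15, and -11, respectively, counted from 0 at the start site. The related letters CACGCG were found in 6 of 30 windows and in 11.4% of all windows. No E-box lay in the windows of FARSB, GARS, KARS, NARS, SARS, TARS, LARS2, NARS2, SARS2, and YARS2, also higher in all 4 lines. After spike-in scaling, the mean changes of the 4 genes with an E-box were below 0. Such a match is a description of the letters and not a binding site, and its link to the changes was not tested.

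The second comparison was of each mutant line with the WT MYCN line in DMSO, as deposited, which shares the 3 WT libraries among the 3 mutants. In T58A, 7 cytosolic genes were higher (AARS, CARS, GARS, IARS, MARS, NARS, and SARS) and 4 were lower (DARS, FARSA, HARS, and RARS), against 10.7% of all genes higher and 13% lower. All 7 that were higher belong to a list of 12 ATF4-linked synthetase genes, of which 0 were lower. Of the other 8 cytosolic genes, 0 were higher and 4 lower. The median change was 0.16 in the ATF4-linked genes, -0.11 in the other 8, and -0.02 in all genes. After spike-in scaling, where the median of all genes was 0.28, the counts were 5 higher and 0 lower among the cytosolic genes, all 5 of them ATF4-linked, against 8.13% of all genes higher and 0.458% lower. DARS and HARS then had values above 0, and FARSA and RARS had values below 0 that did not pass the test. The ATF4 list was drawn up from general knowledge with earlier results of these data known, and what its counts mean was not tested.

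CARS, the cysteinyl enzyme (chromosome 11, 3022152 to 3078843, minus strand), was at 32.1, 29.9, and 30.7 FPKM in T58A and at 23.8, 20.7, and 22.0 FPKM in WT. GARS, the glycyl enzyme (chromosome 7, 30620149 to 30673649, plus strand), was at 140, 143, and 131 FPKM in T58A and at 99.0, 97.2, and 103 FPKM in WT. In both genes every T58A library lay above every WT library, and the log2 changes were 0.48 ± 0.06 (adjusted p = 6.32e-06) and 0.47 ± 0.04 (adjusted p = 6.55e-09, limma). RARS (chromosome 5, 167913456 to 167946306, plus strand) went the other way, at 70.5, 69.8, and 64.0 FPKM in T58A and at 107, 112, and 116 FPKM in WT. Its change was -0.71 ± 0.06 as deposited (adjusted p = 5.64e-09, limma) and -0.41 after spike-in scaling (adjusted p = 0.113, limma). AARS, IARS, and MARS, the alanyl, isoleucyl, and methionyl enzymes, were higher by 0.28, 0.45, and 0.36. Of the mitochondrial genes, EARS2 (0.22), LARS2 (0.35), and TARS2 (0.42) were higher and RARS2 (-0.36) lower as deposited. Only TARS2 among these 4 passed the test after spike-in scaling.

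**Figure D2:**
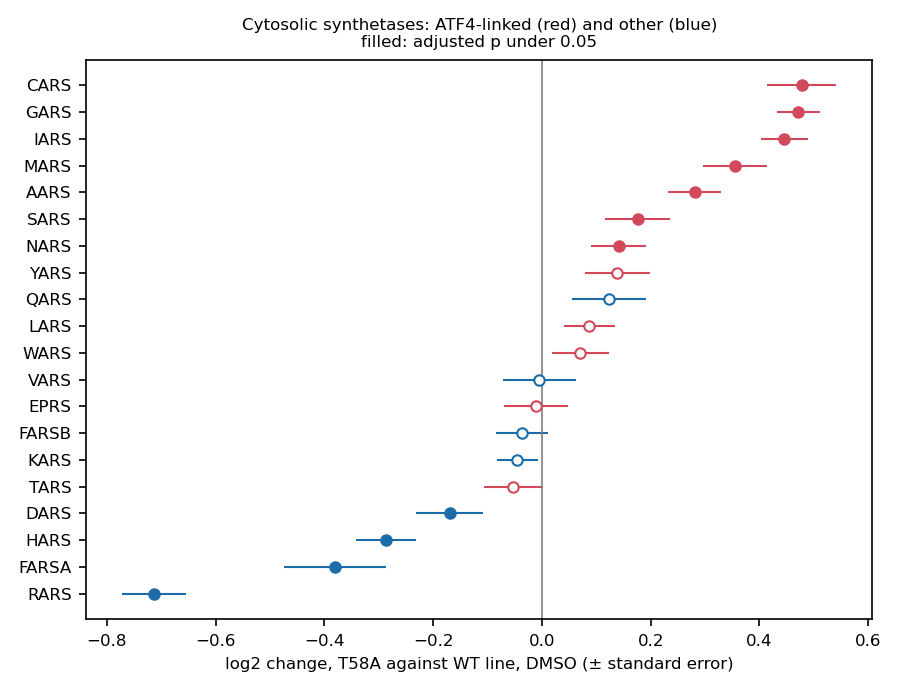
Log2 change of the 20 cytosolic genes in the T58A line against the WT MYCN line in DMSO, on FPKM as deposited, with standard errors. Red marks the 12 ATF4-linked genes and blue the other 8, and filled points passed the test. The 7 filled points to the right are red and the 4 to the left are blue, whereas after spike-in scaling only 5 red points would pass, to the right, and DARS and HARS would lie above 0.

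Other genes of the ATF4 response were also higher in T58A than in WT. ATF4 itself was at 170 ± 4.89 FPKM in T58A and 137 ± 18.3 in WT, a log2 change of 0.33 ± 0.07. Of the 15 genes of the list, 9 were higher and 0 lower, against 10.7% and 13% of all genes, including CHAC1 (1.22), which degrades glutathione, PSAT1 (0.88) of serine synthesis, SESN2 (0.84), and ASNS (0.77), the asparagine synthetase. After spike-in scaling, 5 were higher and 0 lower, against 8.13% and 0.458% of all genes.

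The letters TGATGCAA, those of a C/EBP-ATF composite element, were searched in the same 30 windows on both strands after the windows had been read, so their count supports nothing. They were found in 6 windows, against 0.866% of all windows. All 6 genes are ATF4-linked, of 10 with a window, and the letters were in 0 of 6 windows of other cytosolic genes and 0 of 14 of mitochondrial genes. The longer motif TGATGNAAT was found in the TARS window alone and in 0.992% of all windows, and it can overlap TGATGCAA. The sites are shown with 10 bases on either side and the match in capitals, which reads TTGCATCA where it is on the opposite strand, because 5 of these 6 genes were higher in T58A than in WT as deposited.
AARS: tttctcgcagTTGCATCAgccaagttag
CARS: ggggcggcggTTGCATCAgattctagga
IARS: tttcagcgcgTTGCATCAcctccgtgcg
MARS: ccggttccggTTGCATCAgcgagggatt
NARS: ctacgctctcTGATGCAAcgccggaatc
TARS: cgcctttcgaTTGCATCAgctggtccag
Their first bases lay at -187, -2, -13, -4, 14, and 2 from the start site. The sixth gene, TARS, was at -0.05 and did not pass the test. GARS and SARS, also higher, had a window without these letters.

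In S62A, the line with the lowest MYCN level, 2 cytosolic genes were higher than in WT (NARS and WARS, 0.17 each) and 4 lower, and 0 mitochondrial genes were higher and 1 lower, against 10.1% of all genes higher and 14% lower. FARSA, the catalytic subunit of the phenylalanyl enzyme (chromosome 19, 13033293 to 13044851, minus strand), was at 65.4, 64.5, and 75.2 FPKM in S62A and at 107, 89.8, and 79.9 FPKM in WT, a change of -0.43 ± 0.09 without overlap. TARS2, the mitochondrial threonyl enzyme, was at 13.1, 14.1, and 13.6 FPKM in S62A and at 18.5, 16.5, and 17.1 FPKM in WT, and RARS was at 97.6, 92.2, and 98.8 FPKM in S62A. Both were lower in every S62A library than in every WT library as deposited, by -0.35 and -0.22, and HARS and EPRS were at -0.20 and -0.17. After spike-in scaling the median of all genes was -0.71 in S62A, all 20 cytosolic and 15 mitochondrial genes were lower, against 74.8% of all genes lower and 0.181% higher, and NARS and WARS turned to -0.52 each. In the T58A S62A line, 3 cytosolic genes were higher (CARS, MARS, and QARS) and 5 lower (EPRS, FARSB, RARS, TARS, and YARS), and 2 mitochondrial genes were higher and 1 lower, against 9.43% of all genes higher and 14.2% lower. LARS2, the mitochondrial leucyl enzyme, was at 15.7, 15.2, and 12.8 FPKM against 10.5, 10.7, and 10.7 FPKM in WT, a change of 0.45, and EARS2 changed by 0.40. WARS2, the mitochondrial tryptophanyl enzyme, was at 3.08, 3.63, and 2.86 FPKM against 3.80, 4.57, and 4.80 FPKM, a change of -0.45 as deposited, and RARS, at 80.0, 90.5, and 81.1 FPKM, changed by -0.42. After spike-in scaling, where the median of all genes was 0.39, 10 members were higher and 0 lower, against 23.2% and 1.02% of all genes, and the values of the 5 cytosolic genes lower as deposited were above 0. In a fit of only the groups compared, as deposited, 2 members were called in S62A in place of 7 and 4 in T58A S62A in place of 11. The share of all genes called in that fit is not given, so the drop cannot be read as particular to the members.

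The third comparison was of CYC065 with DMSO in each line, on spike-in scaled FPKM. All 36 members were lower in each of the 4 MYCN lines, as were 74% of all genes, and in the mean of the 4 lines 94.1% of all genes were lower. In SH-EP, 19 of 20 cytosolic and 16 of 16 mitochondrial genes were lower, against 75.7% of all genes, and WARS, the tryptophanyl enzyme, was at -0.38 ± 0.19 (adjusted p = 0.0688, limma). With the 21 spike-ins of at least 50 FPKM alone, 11 of the 20 cytosolic genes were called lower in SH-EP. The share of all genes in that setting is not given. By their medians, mitochondrial genes fell further than cytosolic genes in all 5 lines. The 2 classes also differed in level. In SH-EP with DMSO, the median log2 FPKM as deposited was 3.08 to 3.20 for mitochondrial and 5.75 to 5.83 for cytosolic genes. The part of level in the difference between the classes was not tested. In SH-EP the median log2 change was -0.67 for cytosolic, -1.52 for mitochondrial, and -1.06 for all genes. The same 3 medians were -1.33, -1.82, and -1.57 in the WT MYCN line and -1.02, -1.38, and -1.08 in T58A. They were -1.12, -1.76, and -1.35 in S62A and -0.79, -1.16, and -0.97 in the double mutant. In each line the cytosolic median lay above that of all genes and the mitochondrial median below it. For the mean of the MYCN lines the cytosolic difference from all genes, 0.170, turned to -0.213 without the filter on low values and to -0.00224 with a pseudocount of 1. As deposited, where the medians of all genes were 0.06 to 0.15, the directions parted. In the mean of the MYCN lines, 16 cytosolic genes were higher and 4 lower, and 5 mitochondrial genes were higher and 8 lower, against 45.4% of all genes higher and 39.6% lower. In SH-EP, the counts were 18 and 2 for cytosolic and 5 and 8 for mitochondrial genes, against 42.7% of all genes higher and 33.5% lower.

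**Figure D3:**
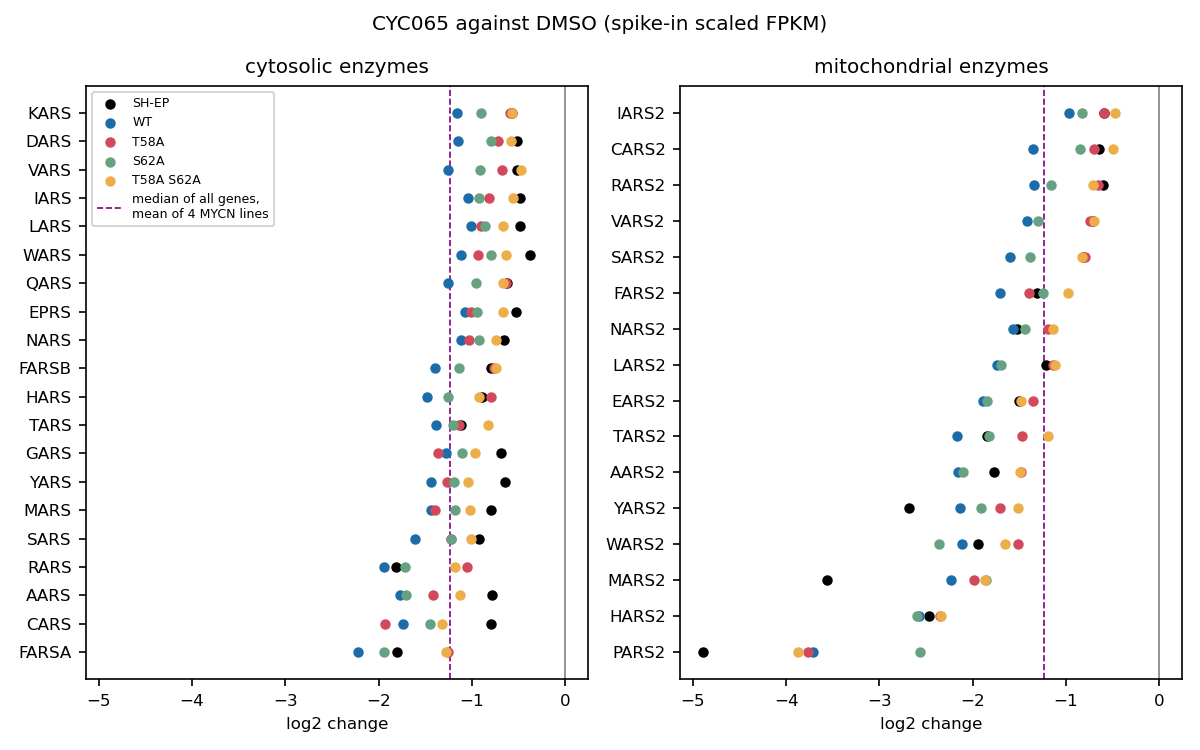
Log2 change with CYC065 against DMSO for each synthetase gene on spike-in scaled FPKM, with cytosolic genes on the left and mitochondrial genes on the right. Black points are SH-EP, colored points the 4 MYCN lines, and the dashed line the median of all tested genes in the mean of the MYCN lines, -1.23. PARS2 lies farthest to the left, followed by HARS2 and MARS2 in the mean of all 5 lines, and as deposited 16 cytosolic and 5 mitochondrial genes would be called higher in the mean of the 4 MYCN lines.

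PARS2, the mitochondrial prolyl enzyme (chromosome 1, 55222571 to 55230196, minus strand), had the largest fall. On the spike-in scale, it was at 7.01, 6.61, and 7.14 in SH-EP with DMSO and at 0.101, 0.185, and 0.131 with CYC065. In the MYCN lines it fell from 1.24 to 6.13, with a median of 2.91, to 0.080 to 0.304, with a median of 0.153, and DMSO and CYC065 libraries did not overlap. The log2 change was -4.89 ± 0.37 in SH-EP and -3.48 ± 0.18 in the mean of the MYCN lines. At these levels the size of the change depends on the pseudocount of 0.1, and relative depth was lower in CYC065 libraries (0.295 to 0.558) than in DMSO libraries (0.47 to 1), whose part in it was not tested. HARS2, the mitochondrial histidyl enzyme, was at 45.6, 46.5, and 53.3 in SH-EP with DMSO and at 8.47, 9.44, and 8.10 with CYC065, and its change was -2.47 ± 0.22 in SH-EP and -2.47 ± 0.11 in the mean of the MYCN lines. MARS2 was at 15.3, 14.4, and 14.4 in SH-EP with DMSO and at 1.98, 1.47, and 0.497 with CYC065, a change of -3.56 ± 0.31, and its mean change in the MYCN lines was -1.99 ± 0.16. These 3 genes were lower with CYC065 as deposited too, by -3.49, -1.22, and -2.30 in SH-EP and by -2.41, -1.13, and -0.65 in the MYCN lines. YARS2, WARS2, AARS2, TARS2, and EARS2 changed by -1.82, -1.91, -1.81, -1.66, and -1.64 in the mean of the MYCN lines. At the other end, IARS2, the member with the highest level, changed by -0.60 in SH-EP and -0.72 in the mean of the MYCN lines, and CARS2 by -0.64 and -0.85. On the spike-in scale IARS2 was at 481, 453, and 499 in SH-EP with DMSO and at 337, 333, and 281 with CYC065. RARS2 changed by -0.60 and -0.97. As deposited, these 3 genes were higher in all 4 MYCN lines, as were 29.6% of all genes, whereas 26.6% were lower in all 4.

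Of the cytosolic genes, FARSA had the largest fall by the mean of all 5 lines, though not in SH-EP. It was at 253, 251, and 261 on the spike-in scale in SH-EP with DMSO and at 82.5, 77.5, and 60.8 with CYC065, and its changes were -1.80 ± 0.20 in SH-EP and -1.67 ± 0.10 in the mean of the MYCN lines. RARS changed by -1.82 and -1.47, and CARS by -0.79 and -1.61. In the MYCN lines the spike-in scaled level of CARS ran from 14.2 to 61.3 with DMSO, with a median of 37.5, and from 4.78 to 19.9 with CYC065, with a median of 11.3. These ranges span 4 lines with different spike-in factors and overlap. DARS, KARS, and IARS, all enzymes of the multisynthetase complex, had the smallest falls by the mean of all 5 lines, and their changes in the mean of the MYCN lines were -0.81, -0.80, and -0.83. DARS was at 61.5, 61.5, and 69.0 in SH-EP with DMSO and at 47.1, 49.0, and 38.6 with CYC065 on the spike-in scale. As deposited, these 3 genes were higher with CYC065 in all 4 MYCN lines, by 0.55, 0.56, and 0.53 in the mean. The complex was not uniform, since its 8 enzyme genes had a median of -0.87 and its 3 scaffold genes one of -1.45, with AIMP2 at -2.50 and AIMP1 at -0.57. Nor were small falls particular to it. By the mean of all 5 lines, DARS, KARS, and IARS were at -0.752, -0.758, and -0.762. VARS and WARS, not among the 8, were at -0.768 and -0.770, and RARS and MARS of the 8 were at -1.54 and -1.16.

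Ratios between cytosolic and mitochondrial genes of 1 amino acid are free of library scaling and were described without a test. Of 14 such pairs, 10 had a higher mean log2 ratio with CYC065 than with DMSO in SH-EP, WT, T58A, and S62A, and 9 in T58A S62A. The median change of the log2 ratio was 0.73 in SH-EP and 0.16 to 0.50 in the MYCN lines. It was below 0 in all 5 lines for CARS to CARS2 and RARS to RARS2.

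The pair HARS and HARS2 are neighbours that point away from each other on chromosome 5. HARS lies at 140052620 to 140071122 on the minus strand and HARS2 at 140071015 to 140078890 on the plus strand of GRCh37, so their 5′ ends overlap in the annotation, and reads were counted by strand. The 84 bases between their RefSeq start sites, chr5:140691371-140691454 of GRCh38.p14, plus strand, are shown because both genes start from this stretch and responded differently.
HARS to HARS2: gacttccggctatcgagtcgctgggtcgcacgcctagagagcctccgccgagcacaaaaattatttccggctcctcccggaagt
None of the letters searched in the windows was in this stretch on either strand. HARS, the cytosolic histidyl enzyme, was at 50.4, 52.6, and 51.7 FPKM as deposited in SH-EP with DMSO and at 67.1, 65.7, and 66.4 FPKM with CYC065. HARS2 was at 14.2, 15.3, and 16.2 FPKM and at 5.96, 6.57, and 6.92 FPKM, respectively. The log2 ratio of HARS to HARS2 was 1.76 ± 0.08 in SH-EP with DMSO and 3.34 ± 0.12 with CYC065. In the means of the MYCN lines it was 1.917 to 2.203 with DMSO and 3.334 to 3.598 with CYC065, and in no line did the treatments overlap. On the spike-in scale HARS changed by -0.89 in SH-EP and -1.11 in the mean of the MYCN lines.

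**Figure D4:**
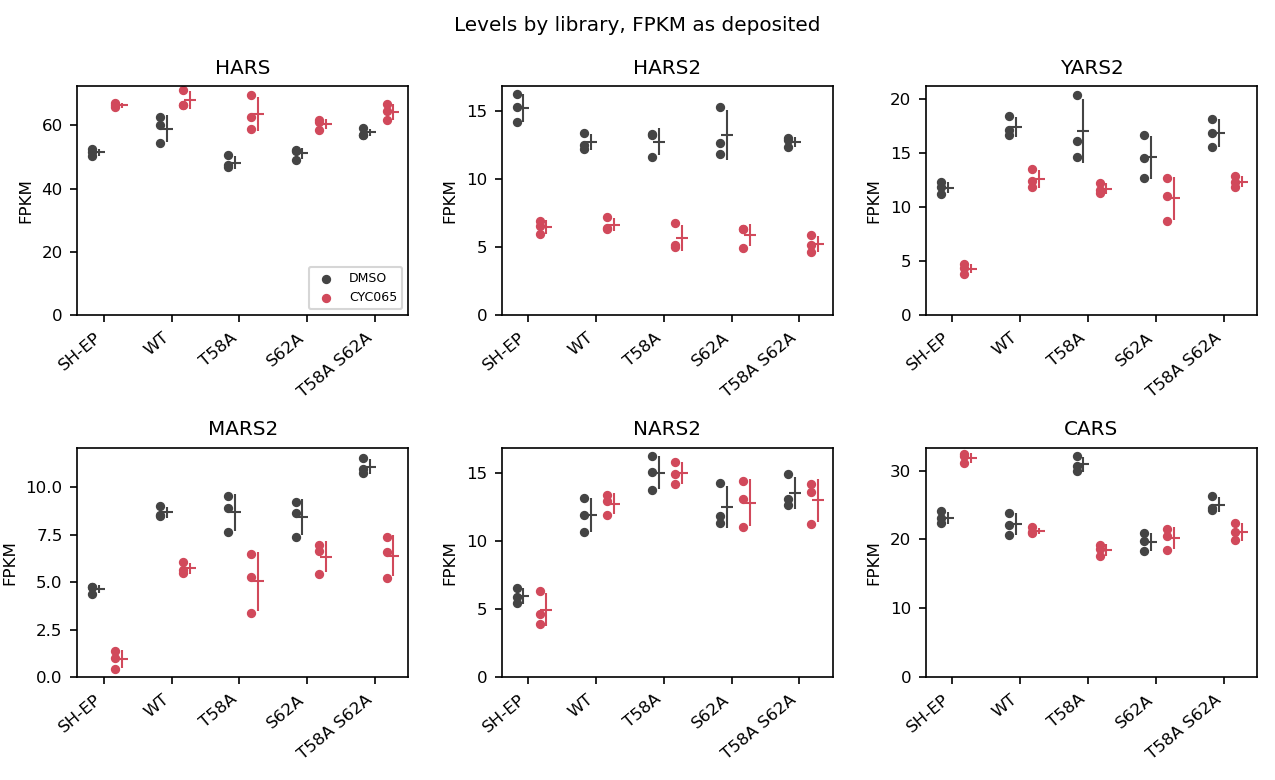
FPKM as deposited of 6 synthetase genes in every library, in DMSO (gray) and CYC065 (red), for SH-EP and the 4 MYCN lines. Points are libraries, and bars beside them show mean ± SD (n = 3). HARS2 is lower with CYC065 in all 5 lines, HARS is higher on this scale and lower after spike-in scaling, and MARS2 and YARS2 are lowest in the 3 SH-EP libraries with CYC065.

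The last comparison asked, by an interaction on the spike-in scale, whether SH-EP and each derivative responded alike to CYC065. Of all genes, 5.41% were called in T58A S62A, 4.95% in S62A, 2.59% in T58A, and 18.1% in the WT line. Of the 36 members, 2, 3, 1, and 4 were called, respectively, and 5 in the mean of the lines, where 6.1% of all genes were called. MARS2 fell less than in SH-EP in WT, S62A, and T58A S62A, and its mean interaction over the 4 lines was 1.58 ± 0.35 in log2 (adjusted p = 0.00455, limma). Without the SH-EP CYC065 library in which MARS2 was lowest it was 1.04 (adjusted p = 0.0327, limma), and the interaction in WT was then 0.79 (adjusted p = 0.0785). As deposited, MARS2 was at 1.39, 1.03, and 0.425 FPKM in SH-EP with CYC065 and at 3.39 to 7.36 FPKM, with a median of 5.86, in the MYCN lines, without overlap. The SH-EP library with 0.425 FPKM had the lowest relative depth of all 30 libraries, 0.295, and the part of depth was not tested. YARS2, the mitochondrial tyrosyl enzyme (chromosome 12, 32880424 to 32908831, minus strand), was at 11.2, 12.3, and 11.8 FPKM in SH-EP with DMSO and at 4.39, 3.86, and 4.73 FPKM with CYC065. In the MYCN lines it was at 12.7 to 20.3 FPKM with DMSO and 8.74 to 13.5 FPKM with CYC065. Its mean interaction was 0.86 ± 0.23 (adjusted p = 0.024, limma), and the log2 ratio of YARS to YARS2 rose by 2.04 in SH-EP and by 0.45 to 0.74 in the MYCN lines. PARS2 had a mean interaction of 1.41 ± 0.41 (adjusted p = 0.0372, limma) and was called in S62A alone of the 4 lines. Its spike-in scaled levels in SH-EP with CYC065, 0.101, 0.185, and 0.131, were near the pseudocount of 0.1, on which the size of its interaction depends. With a pseudocount of 0.01, 1 of the 5 mean interactions was no longer called.

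AARS and CARS had the larger falls in the derivatives, with mean interactions of -0.72 ± 0.20 (adjusted p = 0.0264) and -0.82 ± 0.22 (adjusted p = 0.02, limma). AARS (chromosome 16, 70285886 to 70323610, minus strand) was at 44.7, 45.8, and 45.2 FPKM as deposited in SH-EP with DMSO and at 61.3, 65.5, and 61.0 FPKM with CYC065. In the MYCN lines it was at 44.4 to 57.3 FPKM with DMSO and at 40.5 to 49.9 FPKM with CYC065. CARS was at 22.3, 23.1, and 24.1 FPKM and at 31.0, 32.1, and 32.4 FPKM in SH-EP, and at 18.3 to 32.1 FPKM and 17.6 to 22.3 FPKM in the MYCN lines. With CYC065, both genes were higher in every SH-EP library than in every MYCN-line library as deposited. In fits without 1 of the 6 SH-EP libraries, the call of the mean interaction was lost in 5 for AARS, 4 for CARS, 5 for PARS2, and 5 for YARS2, with adjusted p up to 0.109 (limma). The calls also depended on the scaling. With the 21 spike-ins of at least 50 FPKM alone, 0 of the 36 members were called in any line or in the mean. The share of all genes called in that setting is not given, so the loss cannot be set against it. On the deposited scale, 9 to 17 members were called in each line. As deposited, 25.4% of all genes were called in T58A S62A, 24.6% in S62A, 23.9% in T58A, 28.6% in WT, and 33.3% in the mean. The direction of the mean interaction of these 5 genes was the same in both of those alternatives.

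The related lists fell with CYC065 on the spike-in scale too. All 3 scaffold genes, all 5 mitochondrial partners, all 18 tRNA processing genes, and all 19 polymerase III genes were lower in SH-EP and in the mean of the MYCN lines, where 75.7% and 94.1% of all genes were lower. The polymerase III genes had the lowest medians, -2.14 in SH-EP and -2.08 in the mean of the MYCN lines. Of the 15 ATF4 response genes, 10 were lower and 2 higher in SH-EP and 13 were lower and 2 higher in the mean of the MYCN lines, and ATF4 changed by -1.78 and -1.85. The 2 that were higher in both were SESN2 (1.83 and 0.62) and ATF3 (0.64 and 2.65). The share of all genes higher on this scale is not given, nor are the counts of this list as deposited. As deposited, 1 scaffold gene was higher and 1 lower in both, 1 partner was higher and 3 lower in both, and 5 polymerase III genes were higher with 13 lower in SH-EP and 12 lower in the mean. The tRNA processing genes were then split, 5 higher and 7 lower in SH-EP and 8 higher and 7 lower in the mean of the MYCN lines, against 42.7% of all genes higher and 33.5% lower in SH-EP and 45.4% and 39.6% in the mean.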

How the data were processed

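Total RNA of SH-EP cells and 4 MYCN derivatives was used with ERCC spike-ins added by cell number, poly(A) selection, and strand-specific libraries. The authors aligned reads to hg19 (GRCh37) with HISAT2 and quantified genes with Cufflinks, and the deposited values are FPKM per gene for 26228 genes and 92 spike-ins in 30 libraries. Between 40.6% and 45.8% of genes were at 0, and libraries of a group correlated at 0.975 to 0.987 across genes. The columns name the group but not the replicate number of the labels. Each group had 3 columns.

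From these, log2(FPKM + 0.1) was fitted for the 11575 genes whose mean reached 1 FPKM by limma 3.58.1 (R 4.3.3) in 1 model of 10 groups, with moderated variances that follow the mean and 20 residual degrees of freedom. Adjusted p-values are Benjamini-Hochberg over all 11575 genes, two-sided, with a threshold of 0.05, and fold changes understate those of low genes. Comparisons between lines used the deposited scale. Those of CYC065, and its interaction with line, used libraries scaled to an equal median log2 value over the 55 spike-ins whose mean reached 1 FPKM. Scale factors ran from 0.722 to 3.28 in DMSO and from 0.260 to 1.44 in CYC065 libraries. The model was tested on simulated data with known changes. Alternatives were the pseudocount, the filter, the scaling, a robust fit, a fold minimum, a fit of only the groups compared, and leaving out each library.

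The members and gene lists were chosen with earlier results of these data known. Values per library are given for genes named by a rule: those changed in all 4 MYCN lines with the largest of their smallest changes (up to 4 cytosolic and 3 mitochondrial), the 3 of each class with the largest and smallest falls with CYC065, up to 4 with interactions, and up to 3 per mutant. HARS and YARS2 beyond these were chosen after their values were seen. Gene positions are from GENCODE lifted to GRCh37, and promoter windows from RefSeq (GRCh38.p14).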

Additional observations from a re-analysis of the deposited data

Results flagged for a closer look

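For 6 synthetase genes, in 10 cases, the interaction test separated the CYC065 response of 1 MYCN line from that of SH-EP, on the spike-in scale (log2 of the response in the line over that in SH-EP, limma, adjusted over all genes). These cases share the SH-EP libraries. The WT line held 4 of the 36 members as cases, where 18.1% of all genes were called by the same test. S62A cells held 3, against 4.95% of all genes. The double mutant line held 2, against 5.41%, and T58A cells 1, against 2.59%. Whether members were called more often than other genes was not tested. AARS had -0.99 ± 0.25 in the WT line (adjusted p = 0.0237) and -0.93 ± 0.25 in S62A (adjusted p = 0.0296). CARS had -0.95 ± 0.27 in WT (adjusted p = 0.034) and -1.14 ± 0.27 in T58A (adjusted p = 0.0189). YARS had -0.80 ± 0.27 in WT (adjusted p = 0.0441). MARS2 had 1.33 ± 0.44 in WT (adjusted p = 0.0417). In the double mutant line its value was 1.70 ± 0.44 (adjusted p = 0.0175), and S62A cells gave 1.71 ± 0.44 (adjusted p = 0.0207). In T58A it had 1.58 (adjusted p = 0.0502). PARS2 had 2.32 ± 0.52 in S62A (adjusted p = 0.00708), and YARS2 had 1.17 ± 0.30 in T58A S62A (adjusted p = 0.0151).

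Of 12 fits that each left out 1 library of the groups compared, PARS2 in S62A passed the threshold in 12 and YARS2 in T58A S62A in 11. The PARS2 levels with CYC065 were near the pseudocount of 0.1, so the size of its interaction depends on that setting. MARS2 passed in 9 in S62A, 9 in T58A S62A, and 3 in WT. AARS passed in 5 in WT and 3 in S62A, CARS in 4 in WT and 6 in T58A, and YARS in 4. With spike-ins of at least 50 FPKM alone, 0 of these cases passed, and the share of all genes that passed then is not given.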

How the results depend on the processing

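No paired analysis was possible because the table's columns carry no replicate number of the labels. Depth is known only as a relative value, and the number of libraries per group, 3, limits the precision. In what follows the value before a change of setting stands in parentheses. Shares of all genes are given only for the deposited and spike-in scales. Counts of members under the other settings, and with a library left out, have no such background beside them. With a change of at least 1.5-fold required, members past the threshold against SH-EP in DMSO were 4 in T58A S62A (26), 3 in WT (23), 2 in S62A (22), and 7 in T58A (27). In the mean, 0 cytosolic genes were higher (13) and 0 lower (2), and 2 mitochondrial genes were higher (9) and 0 lower (2). Against WT they were 0 in T58A S62A (11), 0 in S62A (7), and 1 in T58A (15). Spike-in scaling gave 36 in S62A against SH-EP, 0 cytosolic genes higher and 20 lower, 0 mitochondrial genes higher and 14 lower in the mean, 6 in T58A against WT, and 35 in S62A against WT. Without a filter, 1 cytosolic gene was lower in the mean, and the cytosolic median less that of all genes was 0.224 (0.160). With CYC065, this difference was then 0.0949 for cytosolic and -0.749 for mitochondrial genes in SH-EP (0.390 and -0.454), and -0.213 and -0.686 in the mean of the MYCN lines (0.170 and -0.303), so that the cytosolic direction turned. With a pseudocount of 1 it turned to -0.00224. A fit of only the groups compared gave 1 cytosolic gene lower in the mean, 2 members in S62A and 4 in T58A S62A against WT, and 2, 0, and 1 interactions in WT, T58A, and T58A S62A. With CYC065 as deposited, cytosolic genes were 18 higher and 2 lower in SH-EP and 16 and 4 in the mean, and mitochondrial genes 5 and 8 in both. With libraries centred on their median, they were 18 and 2, and 16 and 2, for cytosolic and 5 and 7, and 7 and 8, for mitochondrial genes. With spike-ins of at least 50 FPKM, 11 cytosolic genes were lower in SH-EP (19) and 0 interactions were called. Interactions in WT, T58A, S62A, T58A S62A, and the mean (4, 1, 3, 2, and 5) were 11, 17, 9, 17, and 19 as deposited and 9, 16, 9, 17, and 16 after centring. Those in WT were 8 with a filter at 5 FPKM and 2 without a filter, and those in T58A were 2 with a robust fit.

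Leaving out each library in turn gave interaction counts of 0 to 19 in WT (19 without a WT DMSO library, 0 without any of 6 others), 0 to 4 in T58A (4 without a T58A DMSO library, 0 without either of a pair of SH-EP DMSO libraries or a T58A CYC065 library), 1 to 3 in S62A (1 without an SH-EP DMSO library), 0 to 2 in T58A S62A (0 without a T58A S62A CYC065 library), and 1 to 9 in the mean (1 without either of a pair of SH-EP DMSO libraries, 9 without a T58A DMSO library). Genes lower in the mean against SH-EP were 0 to 2 cytosolic and 0 to 2 mitochondrial, 0 without 1 of the SH-EP DMSO libraries. Changes of EPRS (-0.0237 to 0.00665), PARS2 (-0.085 to 0.041), and VARS2 (-0.039 to 0.041), which were not called, crossed 0.

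Single genes turned direction under scaling. With CYC065 in the mean of the MYCN lines, values as deposited were above 0 for DARS 0.55, EPRS 0.44, FARSB 0.35, GARS 0.19, HARS 0.25, IARS 0.53, KARS 0.56, LARS 0.50, MARS 0.10, NARS 0.41, QARS 0.49, SARS 0.10, TARS 0.22, VARS 0.53, WARS 0.49, YARS 0.13, CARS2 0.51, FARS2 0.0082, IARS2 0.65, NARS2 0.017, RARS2 0.39, SARS2 0.20, and VARS2 0.31. After centring they were AARS 0.013, DARS 0.71, EPRS 0.59, FARSB 0.51, GARS 0.34, HARS 0.40, IARS 0.68, KARS 0.71, LARS 0.66, MARS 0.26, NARS 0.57, QARS 0.64, RARS 0.046, SARS 0.25, TARS 0.38, VARS 0.69, WARS 0.65, YARS 0.28, CARS2 0.67, FARS2 0.19, IARS2 0.80, LARS2 0.092, NARS2 0.18, RARS2 0.55, SARS2 0.36, and VARS2 0.48. Against SH-EP in DMSO, spike-in scaled values below 0 were AARS -1.10, CARS -1.19, DARS -0.72, FARSB -0.83, GARS -0.89, HARS -1.18, IARS -0.86, KARS -0.89, LARS -1.03, MARS -1.12, NARS -0.88, SARS -1.02, TARS -0.77, VARS -0.77, YARS -0.75, AARS2 -0.90, CARS2 -0.88, EARS2 -0.74, FARS2 -0.99, LARS2 -0.72, MARS2 -0.26, NARS2 -0.10, SARS2 -0.79, TARS2 -1.01, and YARS2 -0.77. Apart from the scaling itself, the cause of these shifts was not tested.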
